A study of Homo sapiens with 16 samples.

Results

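The genes described here are G0S2, the gene of a protein inhibitor of triglyceride breakdown, and 6 genes that act with it on lipid droplets: PNPLA2, PNPLA3, LIPE, ABHD5, PLIN2 and PLIN3. They were taken by symbol from tables of 21453 genes (32062 transcripts), in which all 7 were found, in 9 transcript rows. G0S2 was chosen by its measured levels, its rise with estradiol and genistein in ECC-1 cells in these same data, so those values are given as a description, with no test. The other 6 were chosen for what their proteins do.

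The libraries were made from polyadenylated RNA of ECC-1, an endometrial cancer cell line, and T-47D, a breast cancer cell line. All cells had first spent 5 days in RPMI-1640 without phenol red, with 10% serum stripped of steroids by charcoal. They were then exposed for 8 h to 0.02% DMSO, the vehicle, to 10 nM 17β-estradiol, to 100 nM bisphenol A (BPA, a plastics monomer) or to 100 nM genistein (a soy isoflavone). Each of the 8 groups has 2 libraries, 16 in all. Whether replicates came from separate cultures is not stated in the labels, so p-values measure only the spread between these samples, which may be technical. Estradiol was given at another dose than BPA and genistein, and its values are set beside theirs without a comparison.

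Lipid droplets are organelles in which cells store fatty acids as triglyceride. Breakdown starts with adipose triglyceride lipase, encoded by PNPLA2, which needs the coactivator encoded by ABHD5 and is blocked when the G0S2 protein binds it. Hormone-sensitive lipase, encoded by LIPE, then cleaves the diglyceride. PNPLA3 encodes a relative of PNPLA2 that sits on droplets and is best known in the liver. PLIN2 and PLIN3 encode perilipins that coat droplets: PLIN2 protein is stable only on a droplet, while PLIN3 protein moves between the cytosol and the droplet surface. G0S2 is abundant in fat and liver, where its level follows feeding and nuclear receptor signals.

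Levels are scaled RPKM. These are reads normalized to transcript length and library depth, divided by a factor that brings the libraries to a common scale. Changes are log2 differences of scaled RPKM + 0.5, with a standard error (SE) or a 95% interval, from 1 limma fit over 13827 genes. P-values were adjusted by the Benjamini-Hochberg method over all those genes, and a gene was called changed where the result was below 0.05. The added 0.5 makes the log2 differences of low genes smaller than the ratios of their means. Of the 7 genes, 6 passed the filter on low values (at least 1 RPKM in at least 2 libraries), and LIPE did not. In bulk RNA, fewer cells that express a gene and less of its RNA per cell cannot be told apart.

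Library depth was 17.3 to 29.4 M reads, an estimate from the spacing of low RPKM values. The summed level of 7 luminal breast markers was 115 to 161 scaled RPKM in the ECC-1 libraries and 2469 to 4029 in the T-47D libraries. For 6 markers of Mullerian or endometrial epithelium the ECC-1 sums were 330.0 to 375 and the T-47D sums 0.579 to 0.985. In the same order, the sums of 6 leukocyte markers were 4.23 to 6.53 and 4.39 to 7.41, and those of 6 fibroblast markers 9.40 to 15.5 and 16.9 to 31.8. The first estradiol library of each line stood apart, with a median correlation with the rest of its line of 0.987 (ECC-1) and 0.980 (T-47D). The corresponding values of the other 14 libraries were 0.989 to 0.997.

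In ECC-1, G0S2 was the member whose level moved most with the compounds, which follows from its choice. Its 4 groups there did not overlap. Its level was 2.75 and 2.95 scaled RPKM in the DMSO libraries. With BPA it was 6.57 and 5.55, with genistein 13.8 and 18.2, and with estradiol 19.4 and 23.4. Every treated library lay above both DMSO libraries, and the BPA libraries lay between the DMSO and the genistein libraries. These levels rest on about 51 to 384 reads per library.

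**Figure D1:**
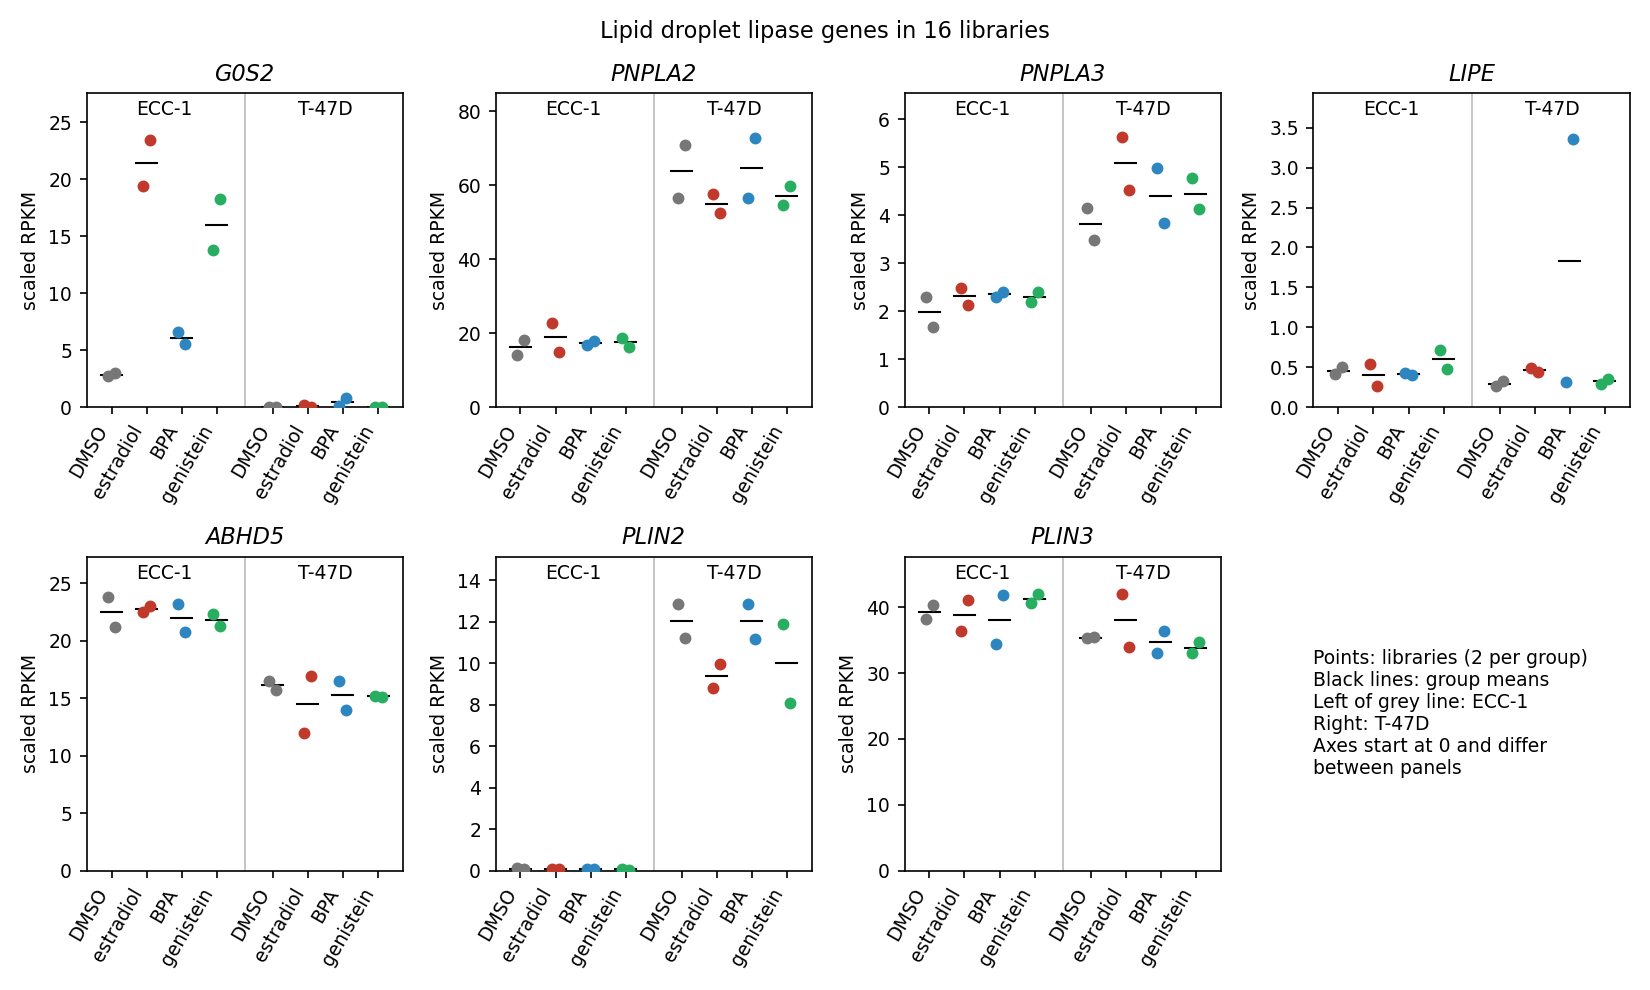
Levels of the 7 genes in scaled RPKM in each of the 16 libraries (points, 2 per group) with group means (lines). ECC-1 is left and T-47D right of the grey line in each panel, and the vertical axes start at 0 and differ between panels. G0S2 rises from 2.75 to 23.4 across the ECC-1 libraries while it is at or near 0 in T-47D, and PLIN2 is near 0 in ECC-1 and 8.09 to 12.9 in T-47D.

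On the log2 scale the G0S2 values lay 2.70 above DMSO with estradiol (SE 0.285) and 2.29 above with genistein. Both are among the values for which the gene was chosen, so nothing is read from the fact that they pass the threshold, which 1.89% of genes did with estradiol and 0.969% with genistein. With BPA the G0S2 mean was 6.06 ± 0.717 (SD, n = 2) against 2.85 ± 0.145 in DMSO. That difference of 0.97 on the log2 scale (95% interval 0.36 to 1.57) did not pass the test after adjustment (limma with Benjamini-Hochberg, adjusted p = 0.792), although both BPA libraries were higher. BPA changed 0.195% of all genes in ECC-1. The comparison uses the same DMSO libraries as the values for which G0S2 was chosen.

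BPA and genistein were given at the same dose for the same time. In ECC-1, G0S2 lay 1.32 higher on the log2 scale with genistein than with BPA (SE 0.285), and the pairs of libraries did not overlap. This is a description with no test, because the genistein libraries served to choose the gene, and nothing further is read from it. For the other 5 members tested, no difference between the compounds passed the test in either line, with log2 differences of genistein minus BPA from -0.05 to 0.12 (ECC-1) and from -0.28 to 0.02 (T-47D). Over all genes the share that differed was 0.0434% (ECC-1) and 0.405% (T-47D). The widest of the 10 intervals, those of PNPLA2, reached from -0.40 to 0.41 in ECC-1 and from -0.57 to 0.24 in T-47D, so differences of that size could have been missed.

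The RNA level of the inhibitor gene relative to that of its target mostly restates the rise for which G0S2 was chosen. No change of PNPLA2 passed the test, so the ratio is a description only, and protein was not measured. The ratio of G0S2 to PNPLA2, both per kilobase, was 0.194 and 0.163 in the ECC-1 DMSO libraries and 0.390 and 0.309 with BPA. It was 0.740 and 1.11 with genistein and 0.850 and 1.58 with estradiol. In 2 of the 8 ECC-1 libraries, 1 with genistein and 1 with estradiol, G0S2 thus stood above PNPLA2. The spread of the ratio within the estradiol pair came partly from PNPLA2, at 22.8 in the first estradiol library and 14.8 in the second. In T-47D the ratio was at most 0.0112.

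The promoter of G0S2 is shown because it is the gene of the group that moved with the estrogenic compounds, and those of PLIN2 and PNPLA2 because they had the largest fitted differences in favour of T-47D among the members. They are RefSeq windows of the 250 bases before the annotated start site (build GRCh38.p14, not the hg19 build to which the reads were aligned), written 5′ to 3′ on the gene's strand. Windows were found for 6 of the 7 genes. Capitals mark matches to 3 motifs on either strand. GGTCA is the core of an estrogen response element and reads TGACC on the other strand. The core of the TATA box is TATAA, which reads TTATA there. An E-box is CACGTG.
G0S2, chr1:209675162-209675411, plus strand: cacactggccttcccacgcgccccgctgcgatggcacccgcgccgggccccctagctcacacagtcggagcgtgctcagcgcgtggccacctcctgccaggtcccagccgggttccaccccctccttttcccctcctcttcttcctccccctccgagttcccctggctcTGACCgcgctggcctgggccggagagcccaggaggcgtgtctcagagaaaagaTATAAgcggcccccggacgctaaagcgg
PLIN2, chr9:19127493-19127742, minus strand: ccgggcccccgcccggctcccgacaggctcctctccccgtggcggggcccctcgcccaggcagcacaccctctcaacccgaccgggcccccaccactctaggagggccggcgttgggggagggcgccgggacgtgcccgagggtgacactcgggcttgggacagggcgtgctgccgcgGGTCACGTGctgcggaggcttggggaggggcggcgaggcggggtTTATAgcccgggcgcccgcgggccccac
PNPLA2, chr11:818664-818913, plus strand: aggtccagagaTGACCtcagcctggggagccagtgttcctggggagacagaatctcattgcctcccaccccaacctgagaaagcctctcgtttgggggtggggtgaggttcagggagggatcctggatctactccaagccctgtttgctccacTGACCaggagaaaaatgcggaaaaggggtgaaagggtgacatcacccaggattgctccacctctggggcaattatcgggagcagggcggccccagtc
Counted from the start site, the G0S2 window holds a TGACC at -81 and a TATAA at -28. The PLIN2 window holds a GGTCA at -72, which overlaps a CACGTG at -69, and a TTATA at -28. The PNPLA2 window holds a TGACC at -239 and another at -97, and neither a TATAA nor a CACGTG.

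Such matches are common. Of 35116 RefSeq windows, each reaching from 250 bases before to 50 after a start site, 37.4% hold a GGTCA on either strand, 20.4% a TATAA and 7.26% a CACGTG. The complete estrogen response element, GGTCA followed after 3 bases of any kind by TGACC, stands in 0.0570% of the windows. A response element of peroxisome proliferator-activated receptors, AGGTCA repeated after 1 base of any kind, stands in 0.0228%. None of the windows of the 6 genes holds either of these. The windows of LIPE, ABHD5 and PLIN3 hold none of the 5 motifs. A match describes the letters only, and no binding was measured here.

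In T-47D, G0S2 was close to or at 0. It was listed at 0 in 5 of the 8 libraries: both with DMSO, both with genistein and the second with estradiol. The first estradiol library had 0.172 scaled RPKM, about 4 reads, and the first BPA library 0.0511, about 1 read. The second BPA library stood alone at 0.812, about 12 reads. A level of 3 reads corresponds to 0.137 to 0.210 scaled RPKM in these libraries, so lower levels could not be told from 0.

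Against the floor of 3 reads per library, the T-47D level of G0S2 in DMSO was at least 14.1-fold lower than the ECC-1 level. The fitted difference, which depends on the added 0.5, was -2.74 on the log2 scale. It is given with no test, because these ECC-1 libraries served to choose the gene and G0S2 passed the filter on low values through ECC-1 alone. No change of G0S2 with a compound passed the test in T-47D. The genistein and DMSO libraries were all listed at 0 and the estradiol libraries lay at 0 or near the floor, so no fold is given for them. With BPA the fitted log2 difference was 0.77 (95% interval 0.16 to 1.37, limma with Benjamini-Hochberg, adjusted p = 1), and 0.14 without the second BPA library. The BPA responses of G0S2 in the lines differed by -0.20 (95% interval -1.06 to 0.66), which did not pass the test (adjusted p = 1). That value was -0.82 without the second T-47D BPA library and 0.43 without the first. With 0.1 added in place of 0.5 it was 0.83. It also uses the ECC-1 DMSO libraries that served to choose the gene, so a like response in the lines is not shown. For estradiol and genistein the differences in response, T-47D minus ECC-1, were -2.49 and -2.29 and belong to the choice of the gene.

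The level of an estrogen-induced gene shows the response of T-47D to estradiol in the same libraries. GREB1, whose product assists the estrogen receptor, stood at 11.2 and 12.8 scaled RPKM with DMSO and at 57.2 and 64.5 with estradiol. The receptor gene ESR1 was measured in both lines, with DMSO means of 21.6 (ECC-1) and 31.4 (T-47D).

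**Figure D2:**
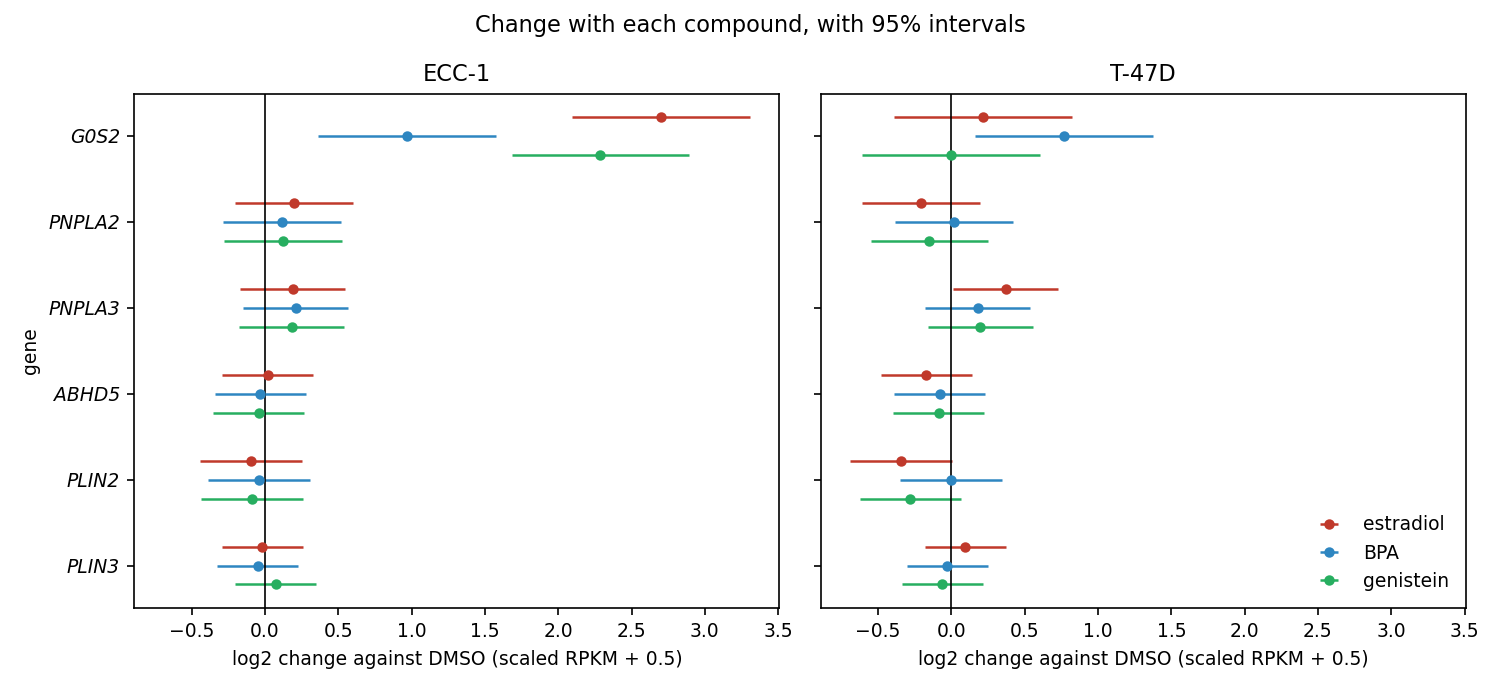
Log2 change against DMSO of the 6 genes that passed the filter, with 95% intervals from the limma fit, for estradiol, BPA and genistein in ECC-1 (left) and T-47D (right). G0S2 in ECC-1 lies at 2.70, 0.97 and 2.29, while the changes of the other 5 genes lie between -0.34 and 0.37 in both lines.

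The lipase gene PNPLA2 was expressed in both lines and was higher in T-47D. In ECC-1 it was 14.2 and 18.1 scaled RPKM with DMSO, and the 8 libraries ranged from 14.2 to 22.8 with a median of 17.4. In T-47D it was 56.7 and 70.9 with DMSO, and the 8 libraries ranged from 52.4 to 72.8. The lines did not overlap, and the difference in DMSO was 1.95 on the log2 scale (SE 0.189, adjusted p = 1.56e-07). In T-47D DMSO libraries PNPLA2 was the most abundant member, and in ECC-1 it came after PLIN3 and ABHD5.

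No change of PNPLA2 with a compound passed the test. In ECC-1 the log2 differences from DMSO were 0.19 with estradiol (95% interval -0.21 to 0.60), 0.12 with BPA and 0.12 with genistein. The estradiol value was -0.11 without the first estradiol library and 0.50 without the second, so its direction rests on the first. In T-47D the differences were -0.20, 0.02 and -0.15. The libraries of the treated groups overlapped those of DMSO in all 6 comparisons.

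ABHD5, the coactivator gene, was lower in T-47D. It was 23.8 and 21.2 scaled RPKM in the ECC-1 DMSO libraries and 16.5 and 15.7 in those of T-47D, a log2 difference of -0.47 (SE 0.146, limma with Benjamini-Hochberg, adjusted p = 0.00883). The ranges over all 8 libraries of each line, 20.8 to 23.8 and 12.0 to 17.0, did not overlap. The call ended without the first ECC-1 DMSO library (-0.39, adjusted p = 0.0762) and without the second DMSO library of T-47D (-0.43, adjusted p = 0.0529). The coactivator gene thus stood above PNPLA2 in ECC-1 DMSO libraries and below it in those of T-47D.

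With the compounds ABHD5 stayed between -0.17 and 0.02 of DMSO on the log2 scale in the 6 comparisons. In T-47D with estradiol it was 12.0 in the first library and 17.0 in the second, which lie on either side of the DMSO libraries. Without the second of them the difference would be -0.41 (adjusted p = 0.0339), and without the first 0.07. The first is the library that stood apart from the others of its line.

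PNPLA3 was low in both lines. It was 2.30 and 1.66 scaled RPKM with DMSO in ECC-1 and 4.15 and 3.48 in T-47D, a log2 difference of 0.81 (SE 0.168, limma with Benjamini-Hochberg, adjusted p = 0.000459). The highest of the 8 ECC-1 libraries, 2.49, lay below the lowest of T-47D, 3.48. In T-47D both estradiol libraries, 5.64 and 4.53, lay above both DMSO libraries. That difference of 0.37 (95% interval 0.01 to 0.73) did not pass the test after adjustment (adjusted p = 0.321). The other 5 comparisons of a compound with DMSO gave 0.18 to 0.21, with overlapping libraries in each.

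LIPE was low in 15 of the 16 libraries. Its level was 0.264 to 0.720 scaled RPKM in ECC-1, on 19 to 66 reads. In T-47D it was 0.262 and 0.323 with DMSO, 0.487 and 0.437 with estradiol, and 0.294 and 0.351 with genistein. With BPA it was 0.315 in the first library and 3.35 in the second, on about 210 reads, and the latter was the 1 library above the filter. The BPA groups of LIPE therefore overlapped DMSO. In a fit without the filter the log2 difference for BPA in T-47D was 1.16 (95% interval 0.08 to 2.24, adjusted p = 1). The libraries keep no strand, so reads of LIPE and of LIPE-AS1, the antisense gene that overlaps it, cannot be told apart.

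The second T-47D BPA library also held the highest G0S2 level of that line, and it differed from the other 7 in markers of fat cells. Of 7 adipocyte markers, 6 were higher in it than in any other T-47D library. PLIN1, the perilipin gene of fat cells, stood at 3.12 against 0.285 to 0.651. FABP4, a fatty acid carrier gene, stood at 1.97 against 0 to 0.209. LPL, the lipoprotein lipase gene, stood at 0.750 against 0 to 0.109, and LEP, the leptin gene, at 0.266 against 0.0146 to 0.0734. ADIPOQ was 1.60 against 0.659 to 1.17, CIDEC was 1.31 against 0.459 to 0.934, and CFD, at 4.32, lay within the range of the others. The summed level of the 7 was 13.3, against 4.38 to 7.45 in the other T-47D libraries and 5.37 to 7.09 in ECC-1. In the other T-47D libraries FABP4 was listed at 0 in 2 and LPL in 1.

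PLIN4, another perilipin gene abundant in fat, stood at 12.3 in the same library against 2.71 to 4.44. Its luminal breast sum of 2912, its leukocyte sum of 5.15 and its fibroblast sum of 23.6 lay within the ranges of the line. The part of these markers in the LIPE and G0S2 values was not tested. In that library PNPLA3 (3.83) lay between the DMSO libraries of T-47D. PNPLA2 (72.8) and PLIN3 (36.3) lay above both of these, and PLIN2 (11.2) and ABHD5 (14.0) below both.

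**Figure D3:**
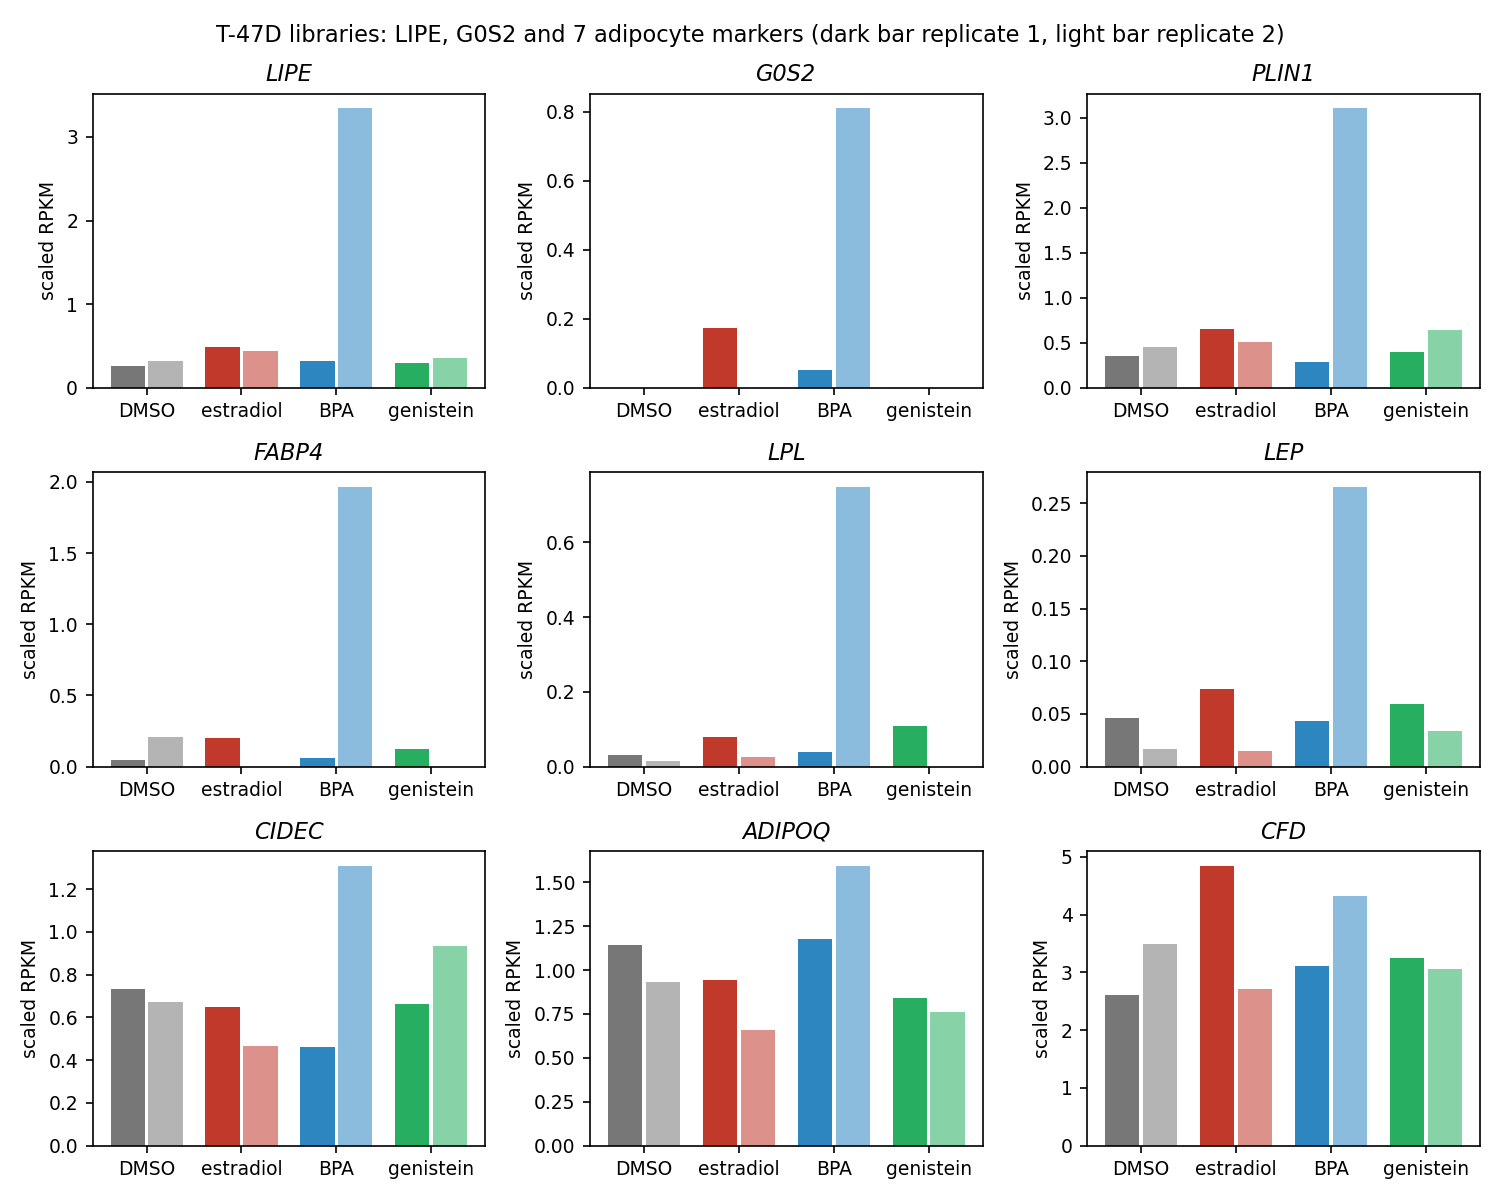
Scaled RPKM of LIPE, G0S2 and 7 adipocyte markers in the 8 T-47D libraries (dark bars replicate 1, light bars replicate 2, vertical axes from 0 and differing between panels). The second BPA library is the highest in every panel but that of CFD, with LIPE at 3.35 and PLIN1 at 3.12.

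PLIN2, the coat protein gene that follows the droplet load of many cell types, was far higher in T-47D. In ECC-1 it was 0.117 and 0.0653 scaled RPKM with DMSO, on 5 and 4 reads, and 2 to 5 reads in each of the 8 libraries. In T-47D it was 12.9 and 11.2 with DMSO, and the 8 libraries ranged from 8.09 to 12.9. The DMSO libraries held 1022 reads in T-47D and 9 in ECC-1. Per library depth, that made PLIN2 130-fold higher in T-47D, with an exact 95% interval of 68.2 to 285 that covers counting error only. The fitted log2 difference was 4.41 (SE 0.163), smaller than that ratio because of the added 0.5. PLIN2 passed the filter on low values through T-47D alone, so it had to differ and no test is given.

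The genes beside PLIN2 on the chromosome were expressed in both lines. HAUS6 stood at 14.9 in ECC-1 and 5.07 in T-47D with DMSO, and RRAGA at 27.2 and 40.0. On the other side DENND4C stood at 10.1 and 18.3, and the ribosomal protein gene RPS6 at 1769 and 520. At G0S2, the neighbouring laminin gene LAMB3 stood at 54.0 in ECC-1 and 0.633 in T-47D with DMSO, in the same direction as G0S2. HSD11B1, on the other side of G0S2, was listed at 0 in all 4 DMSO libraries. The next genes outward were near 0 in both lines: CAMK1G at 0.0507 and 0, and TRAF3IP3 at 0.0673 and 0.0672. The part of the region in these levels was not tested.

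With the compounds PLIN2 did not pass the test. In T-47D both estradiol libraries, 8.79 and 9.99, lay below both DMSO libraries. They differed by -0.34 on the log2 scale (interval -0.69 to 0.00), with an adjusted p of 0.344. With genistein the libraries were 11.9 and 8.09, which overlapped DMSO, and with BPA they were 12.9 and 11.2. In ECC-1, with 2 to 5 reads in each library, a fall could not have been shown. The estradiol difference there, on the scale with the added 0.5, had an interval of -0.44 to 0.25.

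PLIN3, the other perilipin gene, was abundant in all groups. It was 38.2 and 40.3 scaled RPKM with DMSO in ECC-1 and 35.3 and 35.4 in T-47D, a log2 difference of -0.15 (95% interval -0.42 to 0.13) that did not pass the test (adjusted p = 0.311). Its differences from DMSO lay between -0.06 and 0.09 with the compounds in both lines. Across the 8 ECC-1 libraries its highest level was 1.22 times its lowest, against 8.51 times for G0S2. For ABHD5, PNPLA3 and PNPLA2 that ratio was 1.15, 1.50 and 1.61.

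Between the lines in DMSO, G0S2 and PLIN2 each passed the filter through 1 line alone and are left out of the count. Of the other 4 members tested, PNPLA2 and PNPLA3 were higher in T-47D, ABHD5 was lower, and PLIN3 did not pass the test. Of all genes 76.7% differed, 39.6% higher and 37.1% lower in T-47D, so a difference between the lines is common and nothing particular to the members. With the compounds, none of the 5 members tested other than G0S2 passed the test in any of the 6 comparisons with DMSO. Among all genes, 3.22% changed with estradiol, 0% with BPA and 0.803% with genistein in T-47D. For BPA the unadjusted p was under 0.05 for 116 of the 13827 genes in T-47D and for 347 in ECC-1. Both are fewer than this threshold gives where nothing changes, so the test may be conservative for BPA and could have missed changes. No difference between the lines in the response of these 5 genes passed the test either, with 0 of 5 called for each compound, against 1.73% of all genes for estradiol, 0.0434% for BPA and 0.586% for genistein.

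The wider set of genes of lipid droplets and fat storage was counted in the same way. It holds 58 genes, of which 43 were tested: other perilipin and CIDE genes, lipases and acyltransferases, and genes of fatty acid uptake, synthesis and oxidation. None passed the test with estradiol or BPA in either line, or with genistein in T-47D. Of all genes, 1.89% changed with estradiol and 0.195% with BPA in ECC-1. In T-47D the shares were 3.22% with estradiol, 0% with BPA and 0.803% with genistein. With shares this low, a count of 0 among 43 is nothing particular to the list. The medians of the 43 log2 differences from DMSO lay between -0.05 and 0.04, and those of all genes between -0.03 and 0.00.

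The exception was PPARGC1A, the gene of a transcriptional coactivator of mitochondrial fat oxidation, which fell with genistein in ECC-1. PPARGC1A was the 1 gene of the 43 called there, where 0.969% of all genes passed the test. It was 1.66 and 1.52 scaled RPKM with DMSO and 0.721 and 0.895 with genistein. The log2 difference was -0.68 (SE 0.152, limma with Benjamini-Hochberg, adjusted p = 0.0492). It was also 0.994 and 0.838 with estradiol and 1.11 and 1.22 with BPA, all below both DMSO libraries, and neither of these passed the test. In T-47D it was 0.568 and 0.713 with DMSO and 0.902 and 1.08 with genistein, and the genistein response differed between the lines by 1.07 (adjusted p = 0.0332). Both calls rest on all libraries: leaving out any 1 of the 4 ECC-1 libraries compared gave -0.58 to -0.78 with adjusted p of 0.146 to 0.573, and leaving out any 1 of the 8 libraries behind the line difference gave 0.97 to 1.16 with adjusted p of 0.0512 to 0.224.

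Between the lines, 21 of the 43 were higher and 12 lower in T-47D with DMSO, with a median difference of 0.24 against 0.04 for all genes. Together they make up about the share found among all genes, 76.7%. The list leaned more to higher in T-47D than all genes, of which 39.6% were higher and 37.1% lower, and this lean was not tested. Genes that passed the filter through 1 line alone, such as LPIN2, had to differ and were not left out. Nothing about the list is therefore read from the count. The following were named after their values were seen. C7orf68, now called HILPDA, which encodes another inhibitor of PNPLA2, stood at 16.2 in ECC-1 and 72.3 in T-47D (log2 difference 2.11), opposite to G0S2. The phospholipase gene PNPLA7 stood at 0.508 and 20.7, and FASN, the fatty acid synthase gene, at 60.6 and 255.8. Lower in T-47D were HSD17B11, the gene of a droplet-bound dehydrogenase, at 15.2 and 0.0780, and FABP5, a fatty acid carrier gene, at 109 and 0.759. LPIN2, a phosphatidate phosphatase gene, stood at 6.22 in ECC-1 and was listed at 0 in both T-47D DMSO libraries. The monoglyceride lipase gene MGLL, which acts after LIPE, stood at 0.619 and 2.66.

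**Figure D4:**
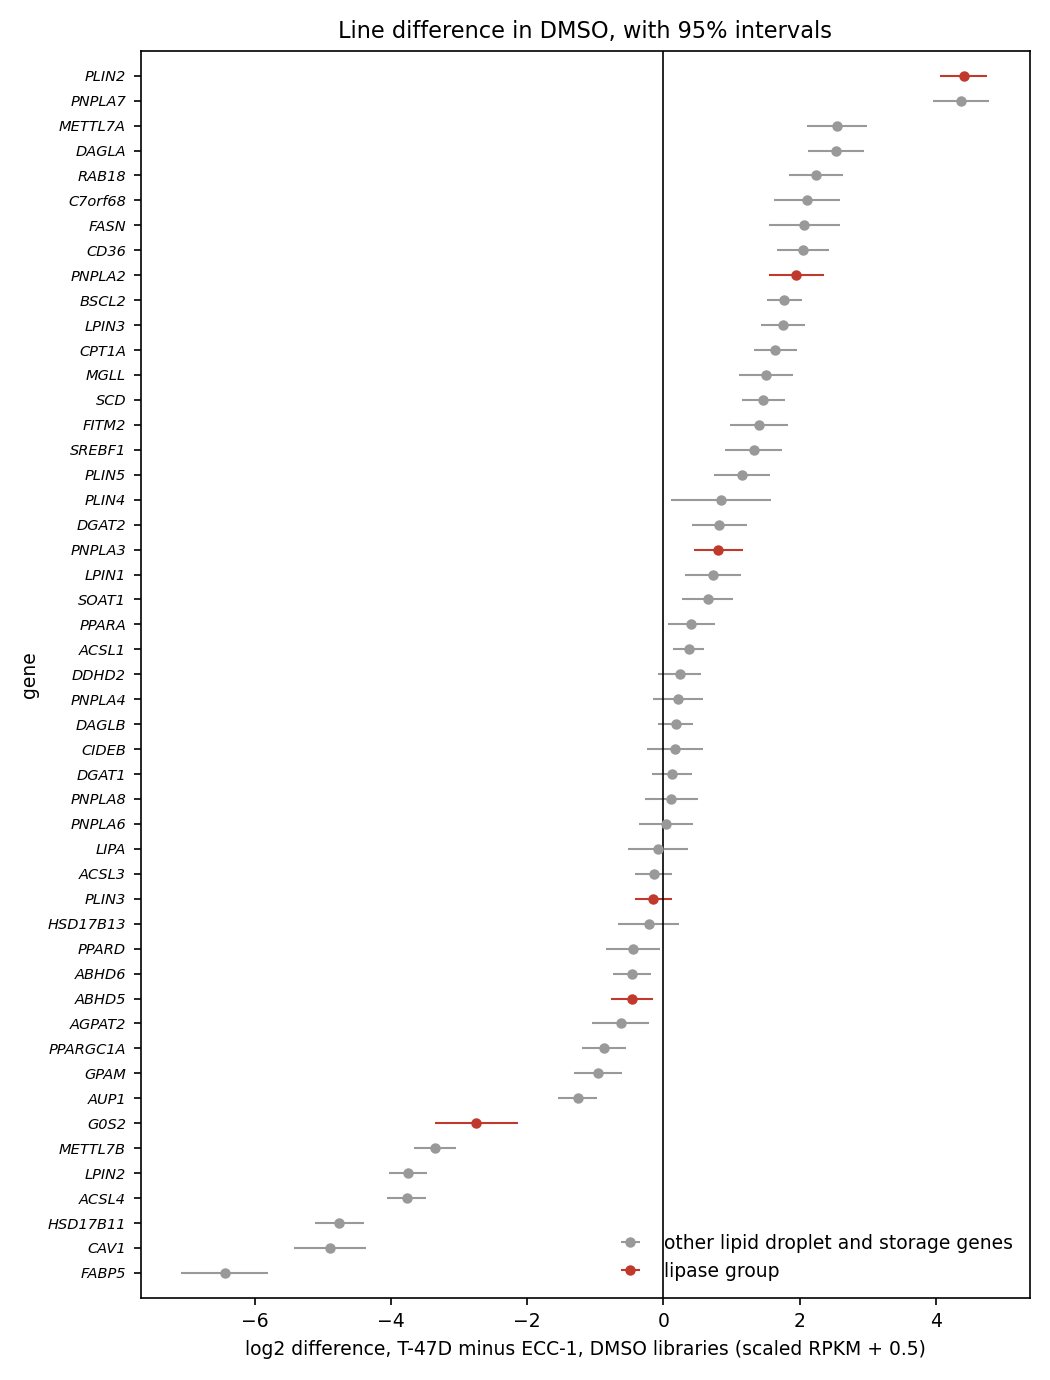
Log2 difference between the lines (T-47D minus ECC-1, DMSO libraries) with 95% intervals for the 6 members tested (red) and the 43 other lipid droplet and storage genes tested (grey). PLIN2 lies at 4.41 and G0S2 at -2.74, and PLIN3 at -0.15 has an interval that includes 0.

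The genes whose pattern over the 8 ECC-1 libraries was most like that of G0S2 were sought among the 12305 genes that averaged 1 scaled RPKM or more there. The highest Pearson correlations of log2 values were those of NCOA4 (0.992), CA12 (0.986), DDX21 (0.984), RHOBTB1 (0.982), KIAA1026 (0.980) and NAF1 (0.979). The 8 libraries are 4 groups that share their treatments, so these are a description. CA12, a carbonic anhydrase gene, stood at 2.29 with DMSO, 5.09 with BPA, 9.21 with genistein and 10.7 with estradiol in ECC-1. NCOA4, which encodes a receptor for ferritin breakdown, stood at 74.6, 90.2, 115.5 and 131.8 in the same order. The order of the groups was that of G0S2 for each of the 6, which their choice by correlation favours, so nothing further is read from it. In T-47D CA12 was 56.0 with DMSO and 131 with estradiol, while G0S2 was listed at 0 with DMSO. DDX21 (49.5 and 67.5) and NAF1 (4.34 and 5.62) were also higher with estradiol than with DMSO there. NCOA4 (130 and 109) and RHOBTB1 (5.09 and 3.06) were lower, and KIAA1026 stood at 2.77 and 2.79.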

How the data were processed

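The authors deposited 1 table per library of RPKM values for RefSeq transcripts, per the file headers and values. Reads were aligned with Bowtie to hg19, per the submitters' processing notes. The counting method was not given in the sources used here. Libraries were made with a transposase and keep no strand, per the labels' protocols.

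The transcript with the highest mean was kept per symbol. RPKM was scaled by median ratios over the 7547 genes that reached 5 RPKM in every library (factors 0.938 to 1.054). Genes with at least 1 RPKM in 2 or more libraries were fitted on log2(scaled RPKM + 0.5) in limma 3.58.1 (R 4.3.3), with 8 group means over 16 libraries (8 residual degrees of freedom), eBayes with trend, and Benjamini-Hochberg adjustment within each contrast, threshold 0.05. The test was checked on simulated data.

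Depth was estimated from RPKM steps with GENCODE transcript lengths. Of values under 10 reads, 61.2 to 63.5% lay within 0.1 read of a whole number (20% by chance). Reads are therefore approximate, and intervals and floors on them cover counting error only. Promoters are RefSeq windows. Tables held 0 columns that could not be assigned to a sample.

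The members and gene lists were chosen with earlier results of these data known. By rule all 7 members were named, from the wider list the genes that a compound changed, the 6 genes most like G0S2, and GREB1 and ESR1 for scale. PGR, also in that rule, stood at 0.0710 scaled RPKM in ECC-1 and 63.4 in T-47D with DMSO. Alternatives were 2 other pseudocounts, no filter or a mean of 5 RPKM, no scaling, quantile normalization, summed transcripts, a replicate block, a fit per line, array weights, no trend, and leaving out each library.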

Additional observations from a re-analysis of the deposited data

Results flagged for a closer look

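The response of PPARGC1A to genistein differed between the lines by the test of the difference itself: the log2 change from DMSO was -0.68 in ECC-1 and 0.39 in T-47D, a difference of 1.07 (limma with Benjamini-Hochberg, adjusted p = 0.0332). Both ECC-1 genistein libraries lay below both DMSO libraries, and both T-47D genistein libraries lay above both. The levels were 0.568 to 1.66 scaled RPKM, and the call was lost when any 1 of the 8 libraries was left out.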

How the results depend on the processing

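For single members, 1184 alternative values were computed. They include those of G0S2 in the comparisons for which it was chosen, which carry no test. The line differences of G0S2 and PLIN2, each of which passed the filter through 1 line alone, are also included. Their 15 alternatives each count as kept, although nothing is read from these calls. Of the 1184, 1126 kept their side of the threshold and, where no call was made, moved by less than the spread between replicates. Another 54 moved by more than that spread without passing the test. The sign differed from the reported one in 76, all of them differences that passed the test in neither fit, and 0 reversed a call. ABHD5 lost its call between the lines without either of 2 libraries, as given above. G0S2 in T-47D was lower with genistein than with BPA by -1.39 without the first BPA library (adjusted p = 0.0417), where the group with BPA is the second library alone, and by -0.77 (adjusted p = 0.759) with both. The count of changed members other than G0S2 with estradiol in T-47D was 0, and 0 to 1 on leaving out each library in turn. The 1 was ABHD5 without the second estradiol library, a fit in which the lone sample is assumed to vary like the other groups and in which 3131 genes passed against 445 with all libraries. Other causes of these changes were not tested. PPARGC1A, for which the alternatives were chosen after seeing the data, fell with genistein in ECC-1 under all 16 and kept its call in 8. It lost the call with a pseudocount of 0.1 (adjusted p = 0.101), without the filter (0.0558), with summed transcripts (0.0621) and in a fit on the line alone (0.0516), beside the 4 fits without a library. Its line difference kept the call in 8 of 18 and lost it with the pseudocount of 0.1 (adjusted p = 0.0644), without the filter (0.0545) and in the 8 fits without a library.

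The replicate numbers were not shown to pair the samples: the correlations of replicate deviations between groups of a line ran from -0.224 to 0.408. With the replicate block, 0 members other than G0S2 changed with any compound, as without it. G0S2 with BPA in ECC-1 stayed at 0.97 (limma with Benjamini-Hochberg, adjusted p = 0.828). Between the lines 4 members other than G0S2 differed, with and without the block. They include PLIN2, which had to differ, and without the block 76.7% of all genes differed. The block moved the number of genes that differed between genistein and BPA in ECC-1 from 6 to 10. In ECC-1 the block gave 280 genes with estradiol and 147 with genistein, against 262 and 134 without it. With crossed numbers, chosen after seeing the data, 241 and 134 changed there. In T-47D the block moved the counts from 445 to 537 with estradiol and from 111 to 134 with genistein. With BPA they stayed at 27 in ECC-1 and 0 in T-47D. For a difference in response between the lines they rose from 239 to 311 (estradiol) and from 81 to 107 (genistein), and stayed at 6 for BPA.

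With 2 libraries per group, intervals of the 6 members tested reached 0.28 to 0.61 to either side on the log2 scale for a difference of 2 groups, and 0.39 to 0.86 for a difference in response between the lines. PLIN2 in ECC-1 and G0S2 in T-47D rest on so few reads that a fall could not be shown there.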
